A study of Mus musculus with 10 samples.

Results

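The epicardial genes described here are 10 genes whose products are known from the outer cell layer of the heart, and they were chosen by symbol: *Wt1*, *Tcf21*, *Bnc1*, *Osr1*, *Upk3b*, *Upk1b*, *Msln*, *Lrrn4*, *Gpm6a* and *Sema3d*. All 10 of the 10 were present among the 23195 genes of the deposited comparison. The set is defined by these symbols, with no threshold on a measured value, but it was chosen with earlier results of these data known. RNA-seq of polyadenylated RNA was carried out on the hearts of male mouse embryos of strain C57BL6/J at embryonic day 13.5, 5 of them wild type and 5 *Nos1ap* null. The null embryos carried the constitutive tm1d allele on both chromosomes. This allele lacks exon 4 and was derived with CMV-Cre, which recombines broadly, so that the deletion is not limited to the epicardium or to the heart. The question of the comparison was which transcripts of the embryonic heart differ when *Nos1ap*, which encodes an adaptor of neuronal nitric oxide synthase, is lost.

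The epicardium is a mesothelial sheet that grows out of the proepicardium and covers the myocardium. Some of its cells undergo an epithelial to mesenchymal transition and enter the heart wall, where they form fibroblasts and mural cells of the coronary vessels. The sheet also secretes growth factors that act on the myocardium beneath it. Of the 10 genes, *Wt1*, *Tcf21*, *Bnc1* and *Osr1* encode transcription factors, *Upk3b*, *Upk1b*, *Msln*, *Lrrn4* and *Gpm6a* encode proteins of the cell membrane or surface, and *Sema3d* encodes a secreted guidance cue. Several of these genes also mark other mesothelia and other mesoderm. In a whole heart, fewer epicardial cells and less RNA per epicardial cell cannot be told apart.

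The deposited table gives a mean for each genotype, with read counts divided by a size factor per library. Whole read counts of single libraries were derived from these means for 9 of the 10 genes. Only the authors' means are given for *Upk3b*, whose means exceed 1000, the limit of that step. No library name goes with the derived counts, so the libraries of a genotype are numbered 1 to 5 from the highest size factor to the lowest. This numbering has no link to the labels, which number the replicates of each genotype. The size factors ran from 0.918 to 1.15, which corresponds to an estimated 11328233 to 14023004 read pairs on genes per library. The 9 genes were covered by 121 to 629 read pairs in each library. *Nos1ap* itself had a mean normalized read count of 144 ± 14.4 (SD, n = 5) in wild type and of 39.8 ± 5.20 (SD, n = 5) in the null, with no overlap between the libraries.

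Wild-type library 3 stood apart in markers of several other tissues. It had a summed count of 367 over 5 neuronal marker genes, against 48.6 to 67.8 in the other wild-type libraries and 53.1 to 70.8 in the null libraries. It was also the highest library in 5 glial markers (644, against at most 327 in the other wild-type libraries), in 7 markers of lung and foregut (128, against at most 88.7) and in 7 markers of skeletal muscle and body wall (235, against at most 112). The summed counts of 4 endothelial markers lay between 2597 and 2691 in wild type and between 2572 and 2708 in the null. Erythroid markers were higher in the null by the authors' means in 6 of 7 genes, with a median log2 fold change of 0.40. In contrast, 5 of 6 myeloid markers with a mean of at least 10 were lower, with a median of −0.05. Over all 13299 protein-coding genes with a mean of at least 10, 49.5% were higher in the null. Of the myeloid genes, *Itgam* had means of 29.1 and 14.9 and *Mpo* of 9.35 and 2.73 in wild type and null, each with separate ranges. These genes and the 2 erythroid genes with the largest differences, *Slc4a1* (authors' means of 1933 and 3337) and *Epb42* (142 and 266), were chosen after their values had been seen. The part of blood cells in the results below was not tested. Of the markers of cardiomyocytes, none had derived counts. Their summed authors' means were 370710 in wild type and 375538 in the null, and these defining markers of the labelled tissue were all present. The marker genes that exceeded 3 times the median of the 10 libraries, with wild-type library 3 as the highest, were *Myh11*, *Elavl4*, *Phox2a*, *Th*, *Chrna3*, *Sox10*, *Foxd3*, *Fabp7*, *Epcam*, *Cdh1*, *Foxa2*, *Foxf1*, *Myod1*, *Myog* and *Myh3*. *Afp* exceeded it in wild-type library 2. The 7 liver markers summed to 103 in that library and to 78.4 in wild-type library 4. Their sums were 36.6 to 52.8 in the other wild-type libraries and 36.2 to 57.7 in the null libraries. Among genes other than the markers, values without wild-type library 3 are given for *Wt1*, *Osr1* and *Scx*. They are also given where leaving it out changed a printed log2 fold change by more than 1.5 times or moved an unadjusted p across 0.05. For marker genes no such values are given, also where they changed by more than this.

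**Figure D1:**
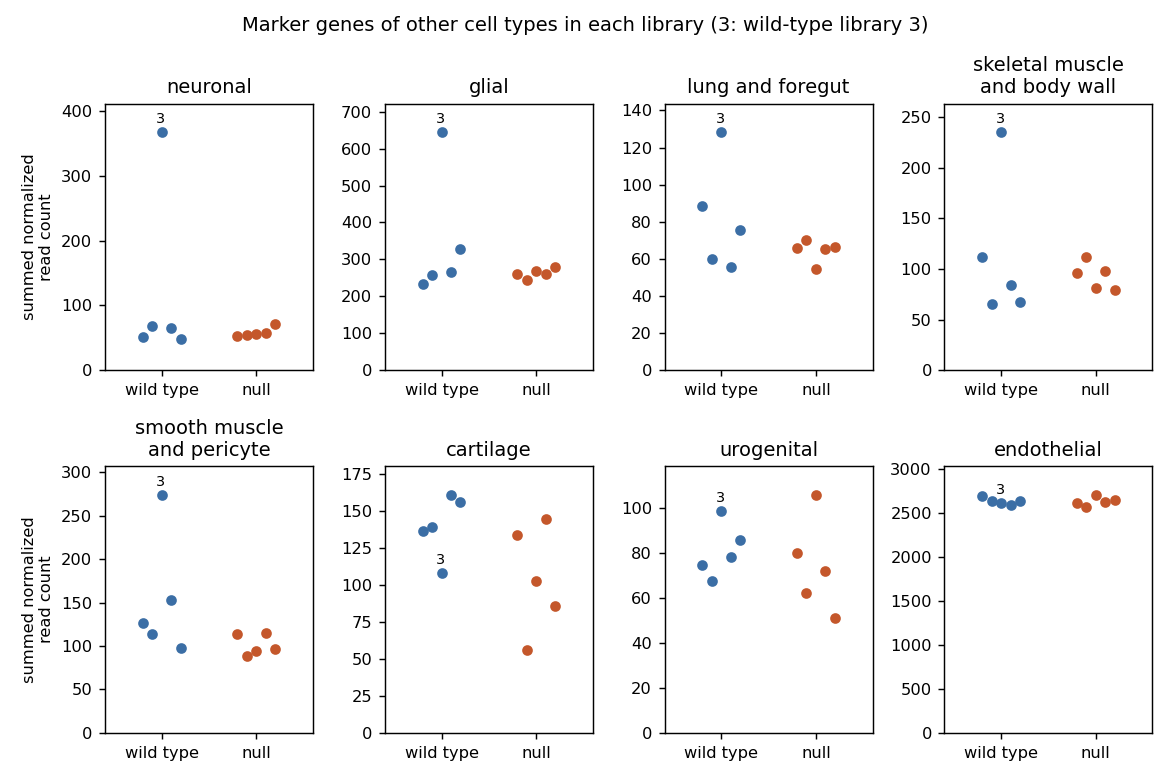
Summed normalized read counts (y axis, starting at 0) of marker genes of other cell types in each of 5 wild-type and 5 null libraries (x axis, 1 point per library). Wild-type library 3, marked by its number, lies at 367 for neuronal markers, while the other 9 libraries lie between 48.6 and 70.8, and the endothelial markers lie between 2572 and 2708 in all 10 libraries.

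The epicardial genes were expressed at intermediate levels. Per kilobase of annotated exon, the highest was *Upk3b*, which encodes a uroplakin of mesothelial membranes, with authors' means of 426 normalized reads per kb in wild type and 449 in the null. In wild type, 91.1% of the 13281 genes with a length had a level per kb at or below that of *Upk3b*. *Tcf21* followed at 147 ± 7.47 normalized reads per kb in wild type (SD, n = 5), *Osr1* at 114 ± 18.2, *Upk1b* at 93.5 ± 11.2, *Lrrn4* at 93.0 ± 14.9, *Wt1* at 81.9 ± 8.21, *Msln* at 76.7 ± 4.57, *Gpm6a* at 71.9 ± 7.50, *Bnc1* at 61.3 ± 9.39 and *Sema3d* at 48.1 ± 3.72. From *Osr1* down to *Bnc1*, each pair of neighbours in this order differed by less than the sum of their SDs. *Sema3d* was the lowest per kb, at a level that 38.7% of genes did not exceed, although its level per gene was among the higher ones, since its annotated exons cover 8595 bases.

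In most of the families, the epicardial gene was the family member with the higher level per kb. The paralogue of *Upk1b*, the tetraspanin *Upk1a*, had a wild-type mean of 4.96 normalized reads per kb, against 93.5 for *Upk1b*. *Upk3bl*, named for its likeness to *Upk3b*, had 0.602 per kb. *Mslnl*, the mesothelin-like gene, had 0.297 per kb. *Bnc2* had 0.769 per kb against 61.3 for *Bnc1*, and *Osr2* had 2.36 against 114 for *Osr1*. Of the relatives of *Tcf21* among the basic helix-loop-helix factors, *Tcf15* had 43.6 per kb, *Tcf24* 21.9, *Msc* 4.43 and *Tcf23* 0.805. *Gpm6b* (20.3 per kb), of the proteolipid family, was below *Gpm6a*, and *Lrrn2* (60.2), *Lrrn3* (26.8) and *Lrrn1* (9.46) were below *Lrrn4*. *Sema3d* differed from this order, since *Sema3f* (63.8 per kb) and *Sema3c* (52.7) exceeded it in mean level and *Sema3b* (45.6), *Sema3a* (36.8), *Sema3g* (18.0) and *Sema3e* (2.76) did not. The zinc finger gene *Egr1*, whose product recognizes sequences like those of WT1, had an authors' mean of 73.6 per kb.

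**Figure D2:**
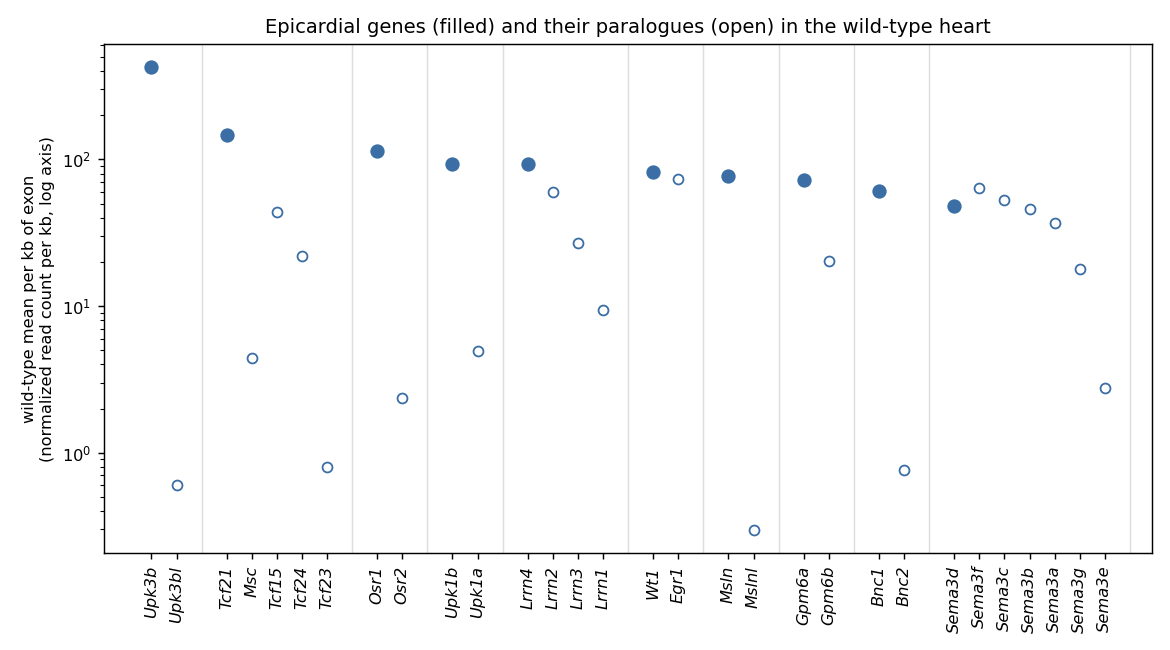
Wild-type mean level per kb of annotated exon (y axis, log scale, normalized reads per kb) of the 10 epicardial genes (filled) and of 20 paralogues (open), grouped by family along the x axis. *Upk3b* lies highest at 426, *Mslnl* lies lowest at 0.297, and in the semaphorin family 2 paralogues lie above *Sema3d*.

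Between the genotypes, the changes were small, and none of the 9 genes with derived counts passed the test at an FDR of 5% (limma, adjusted over the 10242 protein-coding genes tested; adjusted p = 0.999 for each). Over all genes tested, 3 were called, which is 0.0293%. The voom form of limma also called none of the 9. For none of them were the ranges of the genotypes separate, against 0.791% of all genes tested. Without adjustment, 3 of the 9 had p under 0.05: *Wt1* and *Bnc1* were higher and *Osr1* was lower in the null. This is 33.3% of the 9, and the same level was reached by 3.59% of all genes tested (1.73% higher and 1.86% lower in the null). By the group means, 9 of the 10 epicardial genes were higher in the null, against 49.5% of 13299 protein-coding genes with a mean of at least 10. Their median log2 fold change was 0.10, and that of all these genes was −0.00093. Among the 9 tested genes, the median limma log2 fold change was 0.12, against −0.0045 over all genes tested. The 9 genes came from the same libraries, so that their directions do not count as 9 separate observations. Since the 10 genes were chosen with earlier results of these data known, the shares above describe the set and do not test it.

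*Wt1* encodes a zinc finger transcription factor that is a defining marker of the epicardium. It lies on the forward strand at chr2:105126529-105173616 (GRCm38). The normalized read counts of *Wt1* were 525, 473, 589, 483 and 468 in wild-type libraries 1 to 5, and 566, 575, 565, 635 and 531 in null libraries 1 to 5. All 5 null libraries lay above the wild-type mean, and the genotypes overlapped through wild-type library 3. The mean was 508 ± 50.9 (SD, n = 5) in wild type and 574 ± 37.5 (SD, n = 5) in the null, a difference of 13.2%. The limma log2 fold change was 0.18 (SE 0.0628, 95% interval 0.05 to 0.31, unadjusted p = 0.00904), and the exact two-sided permutation test of the means gave p = 0.0635. The smallest p that this test can give with 5 against 5 libraries is 0.00794. Without wild-type library 3, the log2 fold change was 0.24, with an unadjusted p of 0.000392 and an adjusted p of 0.574 by limma, and an exact p of 0.0159.

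*Bnc1* encodes basonuclin 1, a zinc finger protein of epithelia and mesothelia. It lies on the reverse strand at chr7:81966672-81992292 (GRCm38). Counted per library, *Bnc1* had normalized read counts of 347, 244, 292, 298 and 242 in wild type and 318, 346, 324, 361 and 344 in the null. All null libraries lay above the wild-type mean, and wild-type library 1 lay within the range of the null. The mean was 285 ± 43.6 (SD, n = 5) in wild type and 338 ± 17.6 (SD, n = 5) in the null, a difference of 18.9%. The limma log2 fold change was 0.26 (SE 0.0836, 95% interval 0.09 to 0.44, unadjusted p = 0.00570), and the exact two-sided permutation test gave p = 0.0476. Leaving out 1 library raised the exact p to between 0.0556 and 0.0873 for 8 of the 10 libraries.

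*Osr1*, which encodes the zinc finger factor odd-skipped related 1, was the only one of the 10 genes with a lower mean in the null. Outside the epicardium it is known from intermediate and lateral plate mesoderm and from the mesenchyme around the foregut. The gene lies on the forward strand at chr12:9570116-9581500 (GRCm38). The libraries had normalized *Osr1* read counts of 267, 176, 268, 235 and 227 in wild type and 186, 122, 177, 208 and 148 in the null. Of the wild-type libraries, 4 exceeded every null library, and wild-type library 2 lay among the null libraries. The mean was 235 ± 37.5 (SD, n = 5) in wild type and 168 ± 33.9 (SD, n = 5) in the null, and the null mean fell by 28.2% of the wild-type mean. The limma log2 fold change was −0.48 (SE 0.151, 95% interval −0.81 to −0.15, unadjusted p = 0.00779), and the exact two-sided permutation test gave p = 0.0317. An absolute log2 fold change above that of *Osr1* was found in 2.16% of the genes tested. Leaving out 1 library gave log2 fold changes of −0.58 to −0.37, with unadjusted p between 0.000577 and 0.0216, while the exact p rose to 0.0556 for 6 of the 10 libraries.

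Markers of the tissues next to the heart were read beside *Osr1*. *Foxf1*, a marker of foregut and lung mesenchyme, had a mean of 15.1 (5.22 to 39.7) in wild type and of 3.86 (1.09 to 6.44) in the null, and its highest value was in wild-type library 3. The 7 markers of lung and foregut summed to 55.7 to 128 in wild type and to 54.4 to 70.4 in the null. *Wnt2*, the most abundant of them, had means of 46.4 and 47.8. The 5 urogenital markers summed to 67.8 to 98.7 in wild type and to 51.2 to 106 in the null. *Pax2*, *Pax8* and *Nr5a1* were at 0 in some libraries. Most of the urogenital sum came from *Gata3*, with means of 67.7 in wild type and 65.2 in the null, against mean sums of 81.1 and 74.3. The cartilage markers *Acan* and *Comp*, the 2 of 6 with derived counts, summed to 108 to 161 in wild type and 56.3 to 145 in the null. By the authors' means, 5 of the 6 were lower in the null and 1, *Col2a1* (1496 and 1550), was higher. Null library 2, the lowest in *Osr1*, was also the lowest in the sum of *Acan* and *Comp*. Without wild-type library 3, the limma log2 fold change of *Osr1* was −0.43 (unadjusted p = 0.0213). The part of tissue next to the heart in the difference of *Osr1* was not tested beyond these values.

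**Figure D3:**
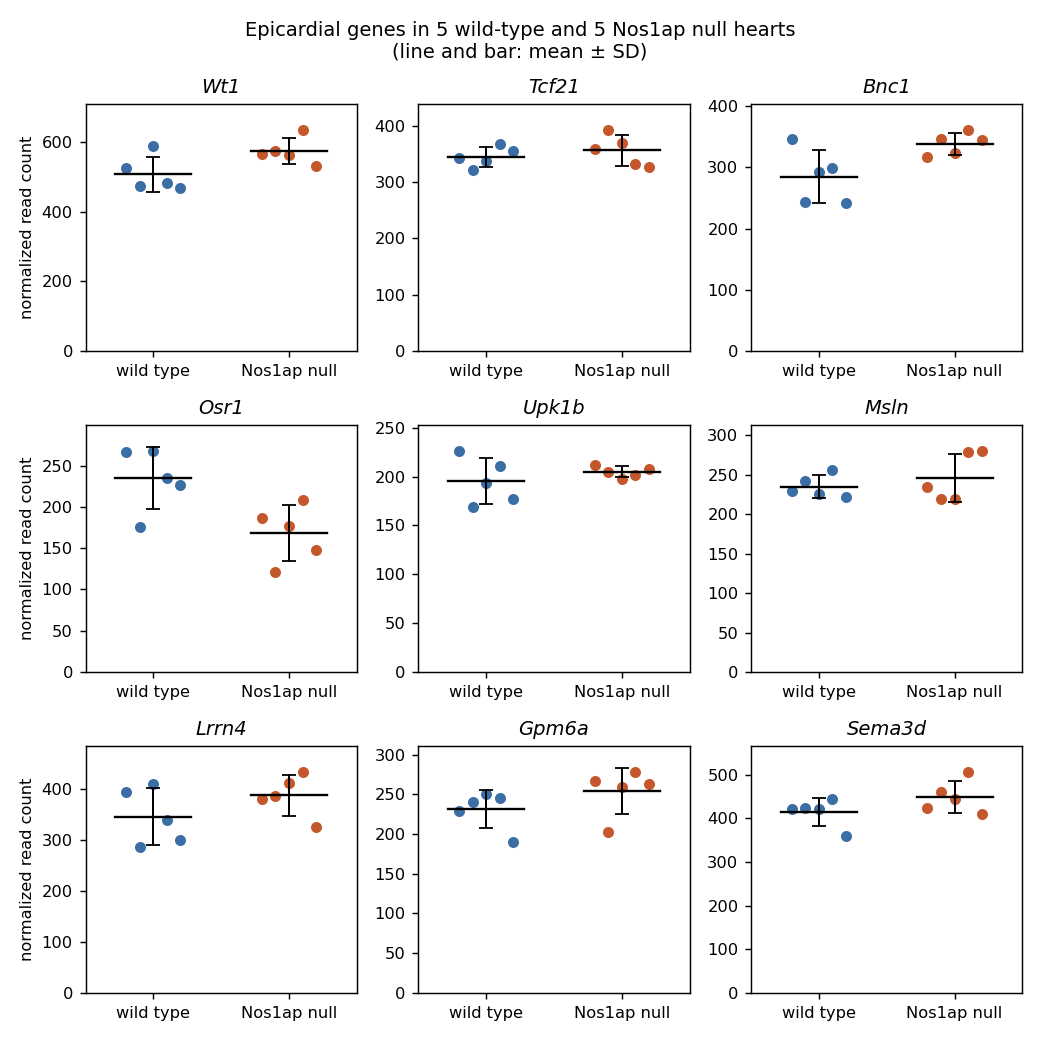
Normalized read counts (y axes, starting at 0) of 9 epicardial genes in 5 wild-type and 5 null libraries (x axes, 1 point per library; lines and bars, mean ± SD). For *Osr1*, 4 of the wild-type libraries lie above all null libraries, for *Wt1* and *Bnc1* all null libraries lie above the wild-type mean, and for no gene are the ranges of the genotypes separate.

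The ratio of *Osr1* to the other epicardial genes was examined after these values had been seen. *Osr1* amounted to 46.1% ± 5.36 (SD, n = 5) of *Wt1* in wild type, with a range of 37.2 to 50.9, and to 29.2% ± 4.96 (SD, n = 5) in the null, with a range of 21.2 to 32.9. The ranges were separate, and the exact two-sided permutation test gave the smallest p it can give, 0.00794. Wild-type library 3 was at 45.4% and thus inside the range of the other wild-type libraries. As a percentage of *Tcf21*, *Osr1* was 67.9 ± 10.4 in wild type and 47.8 ± 11.4 in the null (SD, n = 5; exact p = 0.0159), and these ranges overlapped. *Bnc1* was 56.2% ± 7.34 of *Wt1* in wild type and 59.0% ± 3.54 in the null (SD, n = 5; exact p = 0.452). Of all 36 ratios between 2 of the 9 genes, those of *Osr1* to *Wt1*, *Upk1b*, *Lrrn4* and *Bnc1* had separate ranges, with an adjusted exact p of 0.0714 over the 36, and none of the 28 ratios without *Osr1* did. Ratios that share *Osr1* are not independent of each other. *Osr1* was singled out for its opposite difference in these same libraries, so the p-values of its ratios are no separate support for that difference.

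**Figure D4:**
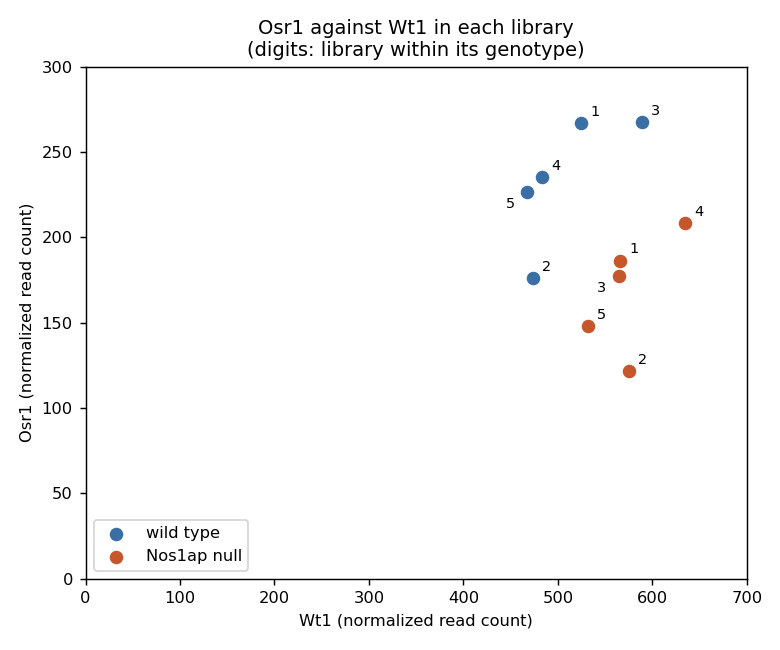
*Osr1* (y axis) against *Wt1* (x axis) in normalized read counts, 1 point per library, with digits for the library within its genotype. The null libraries lie at 21.2 to 32.9% of *Wt1* and the wild-type libraries at 37.2 to 50.9%, so that the groups separate in the plane although they overlap on each axis.

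*Tcf21* encodes a basic helix-loop-helix factor that is needed for the fibroblast lineage of the heart. It lies on the reverse strand at chr10:22817281-22820174 (GRCm38). Its normalized read counts were 343, 321, 338, 367 and 356 in wild type and 359, 392, 370, 333 and 327 in the null. The genotypes overlapped over most of their range, with 2 null libraries above and none below the wild-type libraries. The mean was 345 ± 17.6 (SD, n = 5) in wild type and 356 ± 26.9 (SD, n = 5) in the null. By limma, its log2 fold change was 0.04 (95% interval −0.08 to 0.17, unadjusted p = 0.484).

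Of the 5 surface proteins, *Lrrn4* and *Gpm6a* had the larger differences in the mean. *Lrrn4* encodes a membrane protein with leucine-rich repeats that marks mesothelium, and it lies at chr2:132868305-132880891 on the reverse strand (GRCm38). Its normalized read counts were 393, 286, 410, 339 and 300 in wild type and 380, 386, 410, 433 and 326 in the null. The libraries of the genotypes intermingled, with means of 345 ± 55.2 and 387 ± 40.2 (SD, n = 5). The limma log2 fold change was 0.17 (95% interval −0.05 to 0.39, unadjusted p = 0.122). It was 0.24 without wild-type library 3, where the unadjusted limma p fell under 0.05, and 0.11 without wild-type library 2. *Gpm6a*, at chr8:54954843-55060871 on the forward strand, encodes a membrane glycoprotein best known from neurons. Its normalized read counts were 230, 240, 250, 246 and 190 in wild type and 267, 203, 259, 278 and 262 in the null. In *Gpm6a*, 4 null libraries exceeded all wild-type libraries and null library 2 fell among the lowest. The means were 231 ± 24.1 and 254 ± 29.4 (SD, n = 5), and the limma log2 fold change was 0.13 (95% interval −0.05 to 0.32, unadjusted p = 0.147). The exact two-sided permutation p of *Gpm6a* was 0.230, and it was 0.0159 without null library 2 and 0.452 without wild-type library 5. The log2 fold change was 0.21 and 0.07 in these 2 fits.

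*Upk1b*, *Msln* and *Upk3b* differed by about 5% in the mean. *Upk1b*, a tetraspanin gene at chr16:38773184-38800328 on the reverse strand, had normalized read counts of 226, 169, 193, 210 and 177 in wild type and of 212, 205, 198, 202 and 208 in the null. The null libraries lay within the wild-type range, with a coefficient of variation of 2.76% against 12.0% in wild type. For *Upk1b*, the limma log2 fold change was 0.08 (95% interval −0.09 to 0.24, unadjusted p = 0.340). *Msln*, at chr17:25748613-25754378 on the reverse strand, encodes mesothelin, a lipid-anchored surface glycoprotein. Its normalized read counts were 230, 242, 226, 256 and 221 in wild type and 234, 219, 219, 278 and 280 in the null. In *Msln*, 2 null libraries lay above and 2 below all wild-type libraries. The limma log2 fold change of *Msln* was 0.06 (95% interval −0.11 to 0.22, unadjusted p = 0.466). *Upk3b*, at chr5:136038496-136046487 on the forward strand, had authors' means of 1503 in wild type and 1585 in the null, a difference of 5.47% for which no spread can be given here.

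*Sema3d* encodes a secreted class 3 semaphorin and lies at chr5:12383385-12588948 on the forward strand (GRCm38). Normalized read counts of *Sema3d* were 421, 423, 421, 444 and 359 in wild type and 424, 461, 444, 506 and 410 in the null. In *Sema3d*, 4 wild-type libraries lay between 421 and 444 and wild-type library 5 was lower. The means were 414 ± 32.0 and 449 ± 37.3 (SD, n = 5), and the limma log2 fold change was 0.12 (95% interval −0.02 to 0.25, unadjusted p = 0.0867). The log2 fold change of *Sema3d* was 0.07 without wild-type library 5 and likewise 0.07 without null library 4.

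**Figure D5:**
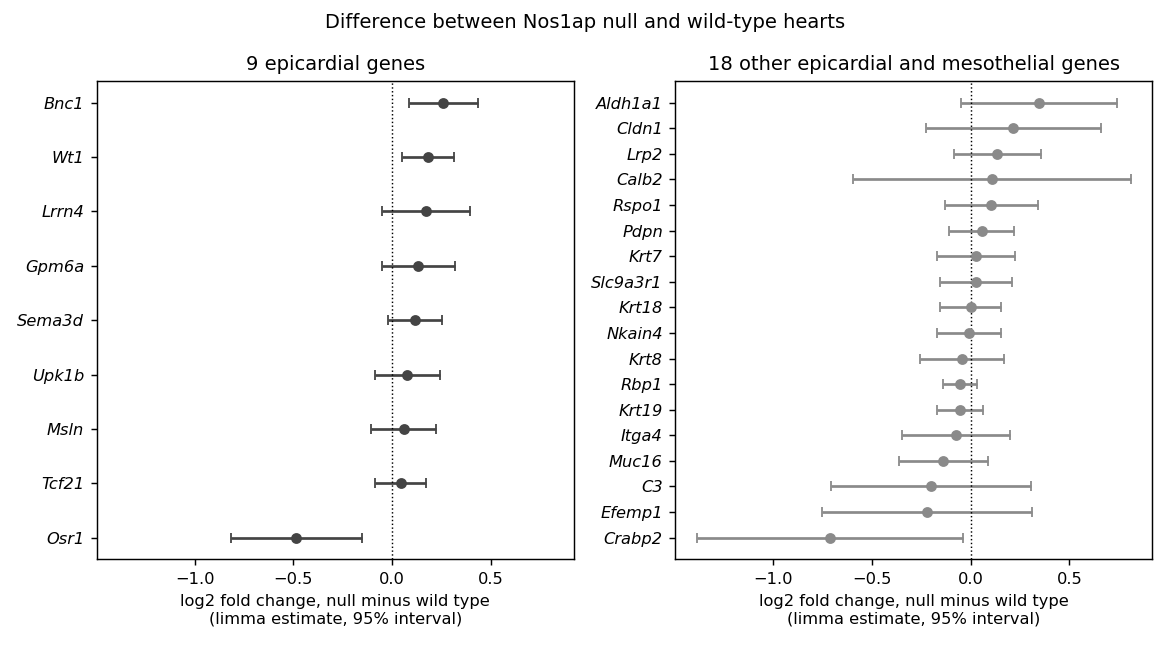
Log2 fold change between null and wild type (x axis, limma estimate with 95% interval) of the 9 epicardial genes with derived counts (left) and of 18 other epicardial and mesothelial genes (right), 1 line per gene, with a dotted line at 0. On the left, the intervals of *Bnc1* and *Wt1* lie above 0, that of *Osr1* lies below, and the other 6 include 0.

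Promoter sequences are shown for 3 genes, since their windows hold the motifs that were searched, and since *Bnc1* had the lowest unadjusted limma p of the 9 and *Lrrn4* followed *Wt1* across libraries. Windows of 250 bases that end before the RefSeq start of a gene (GRCm38.p6) were found for 6 of the 10 genes, namely *Bnc1*, *Gpm6a*, *Lrrn4*, *Sema3d*, *Tcf21* and *Upk3b*. The motifs were the GC box GGGCGG of SP1-like factors, the TEAD motif GGAATG, the WT1 and EGR1 motif GCGTGGG, and the E-box CAGCTG, each on both strands. Capitals mark a match of the first or the second motif.
Bnc1: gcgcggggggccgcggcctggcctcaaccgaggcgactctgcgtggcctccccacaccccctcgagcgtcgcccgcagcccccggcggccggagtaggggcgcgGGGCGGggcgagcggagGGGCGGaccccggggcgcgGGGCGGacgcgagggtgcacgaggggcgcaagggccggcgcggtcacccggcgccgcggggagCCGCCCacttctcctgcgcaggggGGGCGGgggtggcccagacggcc
Lrrn4: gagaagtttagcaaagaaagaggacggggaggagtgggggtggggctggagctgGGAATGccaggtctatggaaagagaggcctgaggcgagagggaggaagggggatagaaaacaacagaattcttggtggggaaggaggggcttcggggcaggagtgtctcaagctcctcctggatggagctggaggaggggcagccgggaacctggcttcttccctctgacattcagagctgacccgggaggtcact
Upk3b: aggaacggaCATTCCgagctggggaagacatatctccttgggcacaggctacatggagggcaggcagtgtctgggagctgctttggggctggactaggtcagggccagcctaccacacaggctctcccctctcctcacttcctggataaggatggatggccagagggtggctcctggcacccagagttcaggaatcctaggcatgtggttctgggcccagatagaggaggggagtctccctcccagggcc
These windows span chr7:81992300-81992549 on the reverse strand, chr2:132880863-132881112 on the reverse strand and chr5:136038246-136038495 on the forward strand, each printed 5′ to 3′ in the direction of its gene. The *Bnc1* window held 5 matches of the GC box, with a GC content of 83.6%, and was the only one of the 6 genes with such a match. A GC box was present in 32.7% of 32851 mouse promoters of the same length. The TEAD motif was present in *Gpm6a*, *Lrrn4* and *Upk3b*, and in 12.6% of all promoters. For *Gpm6a*, the match lay in the window chr8:54779184-54779433, far upstream of the gene position given above. Its other window, chr8:54954478-54954727, lies next to that position and had no match of this motif. The WT1 and EGR1 motif (4.30% of all promoters) and the E-box (13.0%) had no match in the windows of the 6 genes. A match is a description of the letters only.

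The epicardial genes were next compared with each other across libraries, with the mean of each genotype removed. Over the 36 pairs of the 9 genes, the median Pearson r across 10 libraries was 0.27, and 29 pairs were positive. The median over all pairs of the 10242 genes tested was 0.0023. Without wild-type library 5, the median of the 36 pairs was 0.17, and it was 0.27 without wild-type library 3. No pair passed an adjustment over the 36. The pair with the highest correlation was *Wt1* and *Lrrn4*, with r = 0.89 (exact permutation within genotype, p = 0.00153, adjusted p = 0.055) and Spearman rho = 0.88 (exact permutation p = 0.00583, adjusted p = 0.21), over 10 libraries. Without the 2 libraries farthest from the median of *Wt1*, r was 0.92. *Upk1b* and *Bnc1* followed, with r = 0.87 (exact permutation p = 0.0306, adjusted p = 0.367) and rho = 0.62 (exact permutation p = 0.14, adjusted p = 0.42), and r fell to 0.65 without the 2 farthest libraries. *Osr1*, which had the opposite difference between genotypes, had an r of 0.70 with *Lrrn4* (exact permutation p = 0.0248, adjusted p = 0.367; rho = 0.73, p = 0.0231, adjusted p = 0.355), and this r was 0.55 without the 2 farthest libraries. The lowest r was −0.66, between *Tcf21* and *Msln* (exact permutation p = 0.0955, adjusted p = 0.403; rho = −0.68, p = 0.0735, adjusted p = 0.355).

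Libraries differed in how often they were the highest or the lowest. Null library 4 was the highest of the 10 libraries in 5 genes, namely *Wt1*, *Lrrn4*, *Bnc1*, *Sema3d* and *Gpm6a*. Wild-type library 5 was the lowest in 4 genes, *Wt1*, *Bnc1*, *Sema3d* and *Gpm6a*, and wild-type library 2 was the lowest in *Tcf21*, *Upk1b* and *Lrrn4*. Averaged over the 8 genes other than *Osr1*, the centred log2 level was 0.16 in null library 4, between 0.03 and 0.05 in the other null libraries, between 0.001 and 0.03 in wild-type libraries 1, 3 and 4, −0.16 in wild-type library 2 and −0.21 in wild-type library 5. Without wild-type library 5, the median log2 fold change of the 9 genes was 0.07 in place of 0.12. Relative to the mean log2 level of the other epicardial genes in the same library, *Osr1* had a log2 difference of −0.61 between null and wild type (exact permutation p = 0.00794). This relative scale was chosen after the data had been seen, and the p is the smallest that the test can give. *Osr1* was singled out for its opposite difference in these same libraries, so this p is no separate support for that difference. For the other 8 genes the reference includes *Osr1*, so their values are given only with the alternatives below.

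Among all genes with a mean of at least 50 (8330 genes), those most like *Wt1* across the 10 libraries, with the genotype mean removed, were *D430019H16Rik* (r = 0.96), *Bcl7a* (0.94), *Camkk1* (0.93), *Clmn* (0.93) and *Brat1* (0.92). None of these 5 is among the epicardial genes, and they were the most extreme of 8330. *Lrrn4* ranked 13 of the 8330 by its r with *Wt1*. *Osr1* (r = 0.59) ranked 540, *Sema3d* (0.56) 661, *Bnc1* (0.52) 823, *Gpm6a* (0.35) 1743 and *Upk1b* (0.26) 2293, whereas *Msln* (−0.05) ranked 4698 and *Tcf21* (−0.11) 5217.

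The wider set of epicardial and mesothelial genes did not share the direction of the 10. Of 24 such genes with a mean of at least 10, 12 were higher and 12 were lower in the null, with a median log2 fold change of 0.00025. None of the 18 tested was called at an FDR of 5%, and 1 had an unadjusted p under 0.05. The most abundant, with authors' means in wild type and null, were *Ezr* (1916 and 1981), which encodes the membrane linker ezrin, the transcription factor gene *Hand2* (1919 and 1859), *Podxl* (1563 and 1630), which encodes the sialomucin podocalyxin, and the retinoid receptor gene *Rxra* (1133 and 1132). The largest absolute log2 fold changes were those of *Crabp2*, *Aldh1a1*, *Efemp1* and *Cldn1*. *Crabp2*, which encodes a binding protein for retinoic acid, lay between 13.6 and 56.0 in the wild-type libraries and between 10.7 and 19.8 in the null libraries, with a limma log2 fold change of −0.71 (95% interval −1.39 to −0.04, unadjusted p = 0.0389). Its highest value was in wild-type library 3, without which the limma log2 fold change was −0.44 and no longer passed 0.05 without adjustment. *Aldh1a1*, which encodes an enzyme of retinoic acid synthesis, had means of 37.0 ± 8.39 and 47.5 ± 12.8 (SD, n = 5; limma log2 fold change 0.35, unadjusted p = 0.0825). *Efemp1* had means of 152 ± 68.3 and 122 ± 9.71, and *Cldn1*, a tight junction gene, of 30.8 ± 8.20 and 35.7 ± 8.56 (SD, n = 5). *Efemp1* was also highest in wild-type library 3, and its limma log2 fold change was −0.22 with this library and 0.0057 without it.

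Among genes known from mesenchyme that derives from the epicardium, 11 of 16 had lower means in the null and 5 had higher means. Their median log2 fold change was −0.01. Over all 13299 protein-coding genes with a mean of at least 10, 49.5% were higher in the null. None of the 8 tested was called. *Scx*, which encodes scleraxis, a factor of tendon and valve precursors, had means of 88.8 ± 15.6 and 70.1 ± 14.8 (SD, n = 5), with a limma log2 fold change of −0.34 (unadjusted p = 0.0374) and overlapping libraries. Without wild-type library 3, the log2 fold change of *Scx* was −0.46, that of *Prrx1* was −0.06 in place of −0.12, and that of *Thy1* was 0.25 in place of 0.13. *Snai2*, which encodes a factor of epithelial to mesenchymal transition, had means of 228 ± 23.8 and 203 ± 33.8, *Prrx1* of 326 ± 56.0 and 301 ± 54.7 and *Thy1* of 29.1 ± 7.49 and 31.6 ± 6.14 (each SD, n = 5). Null library 2, the lowest in *Osr1*, was also the lowest in *Snai2* (145) and *Prrx1* (210).

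Of the signals that the epicardium is known to secrete or to receive, 11 had a mean of at least 10, of which 6 were higher and 5 were lower in the null, with a median log2 fold change of 0.0044. None of the 4 tested was called, and none had an unadjusted p under 0.05. The largest absolute log2 fold changes were those of *Edn1* (means of 116 ± 14.6 and 134 ± 19.5, SD, n = 5, limma log2 fold change 0.21, unadjusted p = 0.0699), *Cxcl12* (authors' means of 3033 and 2728), *Wnt9b* (88.4 ± 17.7 and 80.5 ± 11.4, SD, n = 5) and *Slit3* (authors' means of 830 and 903). *Wnt9b* was highest in wild-type library 3, and its limma log2 fold change was −0.12 with this library and −0.03 without it. Of the paralogues of the 10 genes, 8 of 14 with a mean of at least 10 were higher and 6 were lower, with a median log2 fold change of 0.04, and none of the 13 tested had an unadjusted p under 0.05. The largest absolute log2 fold changes among them were −0.33 for *Msc*, −0.32 for *Lrrn1*, −0.22 for *Gpm6b* and 0.19 for *Lrrn3*. *Lrrn1* and *Gpm6b* were highest in wild-type library 3, and without it their log2 fold changes were −0.06 and −0.11.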

How the data were processed

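RNA-seq was performed on hearts of 5 wild-type and 5 *Nos1ap* null male embryos (KAPA stranded mRNA kit, paired-end reads of 100 bp). Trimmed reads (Trimmomatic 0.36) were mapped with STAR within RSEM 1.2.31 to GENCODE M10 transcripts (GRCm38) and compared with DESeq 1.24.0. The signal values that the authors deposited are normalized counts averaged over each genotype. The deposited ratio, log2 and p-value columns hold the authors' own comparison and were not used.

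Each mean is a sum of 5 whole counts over their size factors. The 5 smallest non-zero means of a group gave the steps. For means under 1000, whole counts were then searched that add up to the mean, and the most even set was accepted if the expected number of rival sets was at most 0.01. This step gave counts for 98.6% of wild-type and 98.7% of null means, so widely unequal genes can be missing. In data simulated at a dispersion of 0.01, 0 of 19468 and 0 of 19527 derived sets were wrong. Genes that vary more between libraries were not covered by this simulation.

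The limma test (version 3.58.1, R 4.3.3, trend and robust options) covered protein-coding genes with a mean of 10 or more, on log2(normalized count + 1), which understates changes of low genes. The false discovery rate (FDR) was set at 5% by the Benjamini-Hochberg procedure. Single values were compared by exact two-sided permutation over 252 arrangements. The planned adjustment of these exact p-values over the 9 genes is not printed. In data simulated with 200 of 10242 genes changed, limma called 27% of genes changed by a log2 of 0.25, 65% at 0.5 and 88% at 1. Positions and exon lengths came from GENCODE M21 (GRCm38). Alternatives changed the test, pseudocount, filter, gene types, scaling, threshold and libraries. The 10 genes and all lists were chosen with earlier results of these data known, and some genes of the lists are not reported here. Genes named from other lists passed the FDR or had one of the 4 largest fold changes, and other epicardial genes also one of the 4 highest means. Marker genes were named where a library exceeded 3 times the median, and others only to describe a result. The genes most like *Wt1* were the 5 with the highest r.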

Additional observations from a re-analysis of the deposited data

Results flagged for a closer look

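Of 48 groups of 5 libraries examined, 6 held a library whose gap to its nearest neighbour, divided by the range of the group, was above 0.71, and about 1 in 20 groups is expected to do so by chance. In *Sema3d*, wild-type library 5 (359) lay below the other wild-type libraries, the nearest of which was at 421 (ratio 0.732). In *Gpm6a*, null library 2 (203) lay below the other null libraries, the nearest of which was at 259 (ratio 0.746).

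In the sum of 5 neuronal markers, wild-type library 3 (367) lay far above the next wild-type library (67.8), with a ratio of 0.94. The same library was the highest in the glial sum (644, next 327, ratio 0.772) and in the sum for skeletal muscle and body wall (235, next 112, ratio 0.726). In the neuronal sum, null library 5 (70.8) lay above the next null library (56.9), with a ratio of 0.784. Without wild-type library 3, the limma log2 fold change was 0.24 for *Wt1* and −0.43 for *Osr1*.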

How the results depend on the processing

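With voom weights, a pseudocount of 0.5, other filters on the mean, all gene types, 2 other scalings, a stricter threshold and each library left out in turn, none of the 9 epicardial genes was called. *Wt1*, *Bnc1* and *Osr1* kept their direction and an unadjusted limma p under 0.05 in all 17 alternative fits of each, with adjusted p-values of at least 0.574, 0.371 and 0.818. The median log2 fold change of the epicardial genes lay between 0.07 and 0.14. Over the 10 fits that left out a library, the log2 fold change was 0.14 to 0.24 for *Wt1*, 0.21 to 0.33 for *Bnc1*, −0.58 to −0.37 for *Osr1*, 0.11 to 0.24 for *Lrrn4*, 0.07 to 0.21 for *Gpm6a*, 0.07 to 0.15 for *Sema3d*, 0.03 to 0.13 for *Upk1b*, 0.01 to 0.10 for *Msln* and 0.0084 to 0.07 for *Tcf21*. In the exact permutation test, leaving out a library gave differences of the means between 43.1 and 58.9 for *Bnc1* in the 8 cases in which p exceeded 0.05, and between −68.2 and −54.5 for *Osr1* in the 6 such cases. The difference of *Wt1* passed 0.05 without wild-type library 3 (87.3), and that of *Gpm6a* without null library 2 (35.5). *Tcf21* turned to −0.017 without library 2 of each genotype. Relative to the mean of the other epicardial genes, *Osr1* included, *Tcf21* turned to −0.021 and *Msln* to −0.0035. The cause of these turns was not tested. On the same relative scale, *Upk1b* was at 0.02, *Sema3d* at 0.06, *Gpm6a* at 0.08, *Lrrn4* at 0.12, *Wt1* at 0.13 and *Bnc1* at 0.22. These relative values and the fit without both libraries were chosen after the data had been seen. No paired analysis was possible because the deposited means carry no replicate numbers. With 5 libraries per genotype, limma called 27% of genes with a simulated log2 change of 0.25. This change is larger than the differences of 7 of the 9 genes. In each simulation, 200 changed genes were drawn from all 10242 genes tested. The data gave 3 called genes, and a simulation with fewer changed genes was not run. With fewer changed genes the adjusted threshold is stricter, so the simulated shares may overstate what could be found here. The share called among genes with 121 to 629 read pairs per library, as in the 9 genes, was not simulated on its own.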
